A study of Homo sapiens with 10 samples.

Results

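The hypoxia response and the glycolytic pathway were followed through 39 genes, fixed by name, of the 58302 genes in each table. The set held 3 subunits of the hypoxia-inducible factors (HIF1A, EPAS1 and ARNT), 15 HIF targets outside glycolysis, 3 transporters of glucose and lactate (SLC2A1, SLC2A3 and SLC16A3) and 18 glycolytic enzymes, among them the regulatory enzymes PFKFB3 and PFKFB4. All 39 symbols were found in the tables. RNA sequencing had been done on 10 libraries of 3 cell lines labelled as human hepatocellular carcinoma. SK-hep1 cells carried a mock control, overexpressed PSPC1, PSPC1 with PTK6, a YF mutant of PSPC1 that the study names PSPC1-Y523F (called the mutant below), or that mutant with PTK6. Mahlavu cells carried a mock control, the C-terminal 131 residues of PSPC1 (PSPC1-CT131) or a form whose nuclear localization sequence (NLS) was mutated (Mut-NLS-CT131). Both names and the 131 residues are the study's, and the labels give the C-terminal of PSPC1 and an NLS mutation of PSPC1. Huh-7 cells were left as control or were given 10 ng/ml hepatocyte growth factor (HGF) for 48 h. PSPC1 is a paraspeckle protein of the nucleus, PTK6 is a cytoplasmic and nuclear tyrosine kinase, and HGF is the ligand of the receptor tyrosine kinase MET. The study also made stable clones, and whether the sequenced cells were clones or pools was not given in the sources used here. Each condition had 1 library, so no difference below has a replicate check and none has a p-value. No label names an oxygen level for any culture.

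In cells with enough oxygen, the prolyl hydroxylases EGLN1, EGLN2 and EGLN3 mark the HIF alpha subunits (HIF1A and EPAS1) for destruction. When oxygen falls the alpha subunits persist, pair with ARNT and bind short promoter and enhancer motifs with the core ACGTG or GCGTG. The control acts mostly on the protein, so an mRNA level of HIF1A or EPAS1 is not a measure of HIF activity. HIF targets include enzymes of acid balance (CA9, CA12), secreted factors (VEGFA, ADM, ANGPTL4), mitophagy receptors (BNIP3, BNIP3L) and most steps of glycolysis, the cytosolic route from glucose to pyruvate that tumours of many kinds use heavily. Normal hepatocytes rely on other isozymes for several of these steps.

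Promoter windows are shown for members that carry the HIF core and differ in how they behaved in Mahlavu cells. They are RefSeq sequences on GRCh38.p14, read 5′ to 3′ on the strand of the gene, and the capitals mark ACGTG or GCGTG, or CACGT where ACGTG lies on the other strand. CA9, ANGPTL4, PFKFB4, PGK1 and ENO2 were at least 2-fold higher in the library labelled PSPC1-CT131 than in mock, and EGLN1 and GPI were not.
CA9 (chr9:35673870-35673927, plus strand): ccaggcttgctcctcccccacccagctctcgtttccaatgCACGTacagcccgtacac
ANGPTL4 (chr19:8363905-8363965, plus strand): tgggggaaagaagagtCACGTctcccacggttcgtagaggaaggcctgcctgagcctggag
PFKFB4 (chr3:48556925-48557009, minus strand): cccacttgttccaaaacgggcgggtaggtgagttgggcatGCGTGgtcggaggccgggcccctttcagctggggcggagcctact
PGK1 (chrX:78104025-78104109, plus strand): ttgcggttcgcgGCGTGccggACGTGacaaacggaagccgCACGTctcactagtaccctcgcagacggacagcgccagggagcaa
ENO2 (chr12:6914422-6914506, plus strand): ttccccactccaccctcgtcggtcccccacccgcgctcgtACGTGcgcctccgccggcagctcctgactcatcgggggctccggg
EGLN1 (chr1:231422288-231422340, minus strand): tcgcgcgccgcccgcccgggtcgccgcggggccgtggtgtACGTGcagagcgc
GPI (chr19:34364790-34364874, plus strand): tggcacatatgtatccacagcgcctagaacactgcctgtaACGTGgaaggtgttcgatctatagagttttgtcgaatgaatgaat

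The search covered 250 bases before to 50 bases after the start on both strands, and an ACGTG inside CACGTG counted on both. Of the 39 members, 35 had a window in the table and 23 had exactly 1, and only those 23 were searched. ACGTG or GCGTG was found in 19 of the 23 (82.6%), against 47.3% of the 22114 genes with 1 window, and ACGTG alone in 11 (47.8%) against 21.3%. HIF targets outside glycolysis held either motif in 8 of 10 windows and glycolytic enzymes in 9 of 10. The motif did not separate the members by their change in Mahlavu cells, since it stood in 7 of the 9 searched members that were at least 2-fold higher with PSPC1-CT131 and in 12 of the other 14. Both motifs hold the letters CG, and the 22114 genes were not matched to the members for the GC content of their windows. A match is a run of letters and was not tested as a binding site.

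The libraries held 15245935 to 24278662 reads on genes. Mitochondrial genes took 0.463% of reads in SK-hep1 mock and 0.759% to 1.74% in the other SK-hep1 libraries. PSPC1 and PTK6 were read at the level of the gene, and plasmid and endogenous transcripts were not told apart. In SK-hep1, PSPC1 stood at 0 FPKM (fragments scaled to transcript length and library size) in mock. It stood at 7.01 and 26.4 in the libraries labelled PSPC1 and PSPC1/PTK6, and at 2.28 (71 reads) and 70.9 for the mutant alone and the mutant with PTK6. PTK6 stood at 16.7 and 10.5 FPKM in both libraries labelled with it and at 4.09 to 5.69 in the other SK-hep1 libraries. In Mahlavu cells PSPC1 was not higher in the libraries labelled PSPC1-CT131 (30.8 FPKM) and Mut-NLS-CT131 (22.5) than in mock (47.3). What these 2 libraries carried is therefore taken from their labels, under the study's names. Of 15 hepatocyte markers, 1 reached 1 FPKM in every SK-hep1 and Mahlavu library (SERPINA1), while all 15 did in both Huh-7 libraries. At most 3 of 10 endothelial, 5 of 9 fibroblast and 2 of 8 leukocyte markers reached 1 FPKM in any library.

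**Figure D1:**
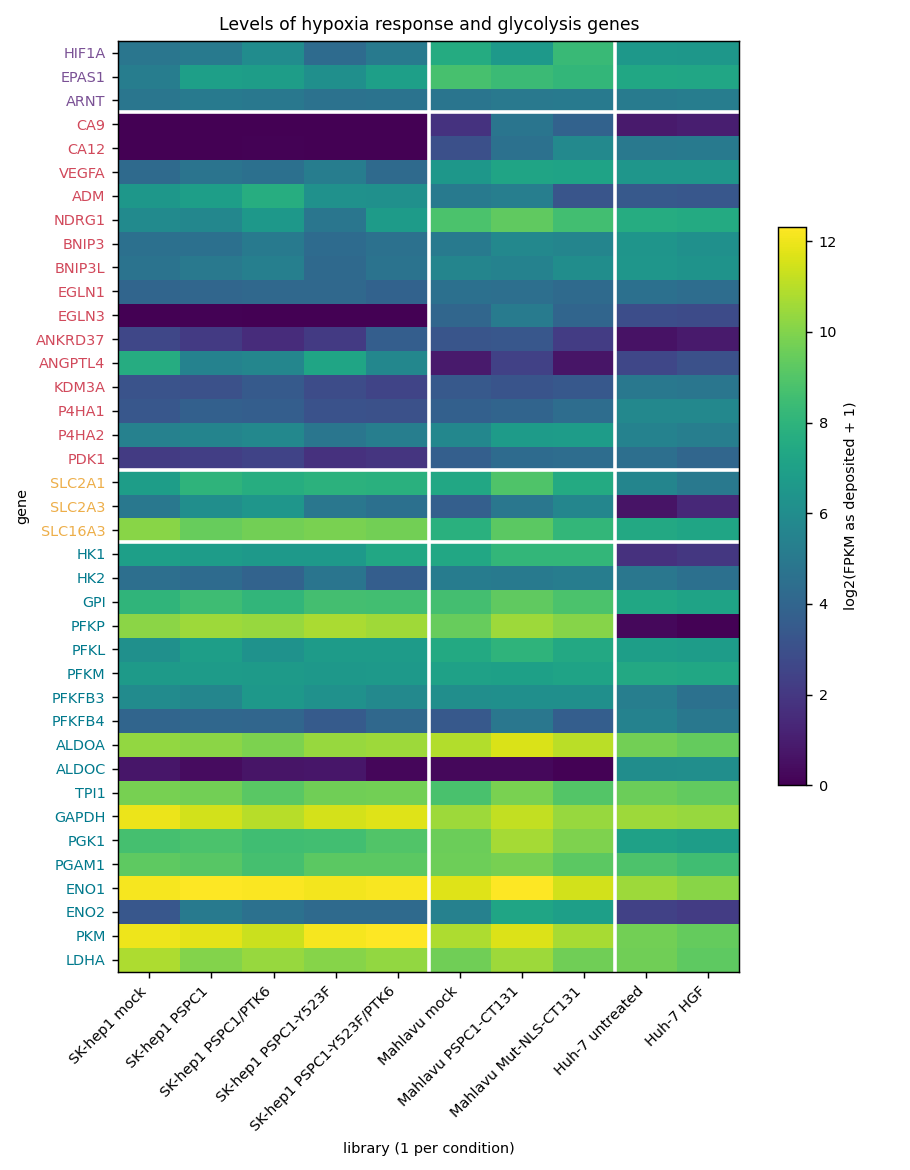
Levels of the 39 genes in the 10 libraries as log2(FPKM as deposited + 1), with gene names coloured by list (purple, HIF subunits; red, HIF targets outside glycolysis; orange, transporters; teal, glycolytic enzymes) and white lines between lists and cell lines. The glycolytic enzymes hold the brightest rows, CA9, CA12 and EGLN3 are dark in the 5 SK-hep1 libraries, and PFKP is dark in both Huh-7 libraries.

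The 3 members with the highest median level over the 10 libraries were the glycolytic enzymes ENO1, PKM and GAPDH. ENO1, the main enolase, had 4502 FPKM in SK-hep1 mock, 5084 and 4835 with PSPC1 without and with PTK6, and 4343 and 4707 with the mutant without and with PTK6. It had 3353, 4945 and 2871 FPKM in Mahlavu mock, PSPC1-CT131 and Mut-NLS-CT131, and 1446 and 1118 in Huh-7 control and HGF. Both Huh-7 values lay below every value of the other lines, and how many of all genes did so was not counted. PKM, the pyruvate kinase of most proliferating cells, ran from 2600 to 4983 FPKM in SK-hep1, from 1661 to 3208 in Mahlavu and from 677 to 822 in Huh-7. GAPDH, which oxidizes glyceraldehyde 3-phosphate, ran from 2003 to 3976 FPKM in SK-hep1, from 1376 to 2315 in Mahlavu and from 1353 to 1435 in Huh-7. The 18 glycolytic enzymes together took 1.98% to 2.61% of all FPKM in SK-hep1, 1.75% to 2.89% in Mahlavu and 0.831% to 0.990% in Huh-7. The 15 HIF targets outside glycolysis summed to 375 to 539 FPKM in SK-hep1, 795 to 1166 in Mahlavu and 631 to 680 in Huh-7, so the line with the highest glycolytic share in its mock library was not the line with the highest sum of other HIF targets.

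The 3 members with the lowest median were CA9, ALDOC and EGLN3, and each was near 0 in whole cell lines. CA9, a cell-surface carbonic anhydrase (9:35673856-35681159 on GRCh38), had 0 reads in each of the 5 SK-hep1 libraries, where 3 reads would be at most 0.148 FPKM. It had 2.54 to 26.3 FPKM in the Mahlavu libraries and 14 and 16 reads in Huh-7. EGLN3, the HIF prolyl hydroxylase most often induced by HIF itself, had 0 reads in 4 SK-hep1 libraries and 1 read in the PSPC1 library, 15.8, 33.5 and 15.3 FPKM in the Mahlavu libraries and 6.58 and 6.07 in Huh-7. CA12, the other carbonic anhydrase, had 0 to 2 reads in SK-hep1, 6.91, 23.3 and 54.1 FPKM in Mahlavu, and 30.9 and 32.3 in Huh-7. ALDOC, the aldolase of brain, stayed at 0.0502 to 0.681 FPKM in SK-hep1 and Mahlavu and stood at 65.2 and 66.0 FPKM in Huh-7. For CA9, CA12 and EGLN3, SK-hep1 was thus the line without detectable or with barely detectable transcript, and for ALDOC only Huh-7 had more than 1 FPKM.

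The isozymes that carried several glycolytic steps differed between the lines. PFKP, the platelet-type phosphofructokinase, made up 86.5% to 89.5% of the summed FPKM of PFKL, PFKM and PFKP in SK-hep1 and 69.7% to 79.4% in Mahlavu. In Huh-7 it was represented by 3 reads and 1 read (0.181 FPKM, 95% exact Poisson interval 0.0374 to 0.530, and 0.0649), and PFKM (59.2% and 58.8%) and PFKL (40.7% and 41.1%) made up the rest. HK1, the hexokinase of most tissues, made up 68.7% to 85.8% of hexokinase FPKM in SK-hep1 and 63.2% to 75.2% in Mahlavu but 6.9% and 9.1% in Huh-7, where HK2, a HIF target, held 81.2% and 69.4%. LDHA, which turns pyruvate into lactate, made up 58.8% to 69.5% of LDHA plus LDHB in SK-hep1, and 99.9% in both Huh-7 libraries. LDHB had 0.558 and 0.343 FPKM in Huh-7. LDHA itself had 791 and 606 FPKM there, below its 1026 to 1786 in SK-hep1. The glucose transporter SLC2A3 ran from 22.4 to 86.3 FPKM in SK-hep1 and was at 0.593 and 1.68 FPKM (14 and 37 reads) in Huh-7, which also had the lowest SLC2A1 (47.9 and 30.4 FPKM). The lactate exporter SLC16A3 held 94.0% to 95.8% of SLC16A1 plus SLC16A3 in SK-hep1 and 70.5% and 69.2% in Huh-7. In such bulk libraries fewer cells with a transcript and less of it per cell cannot be told apart. These levels were not tested, and the line cannot be told apart from the time and handling of its libraries.

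**Figure D2:**
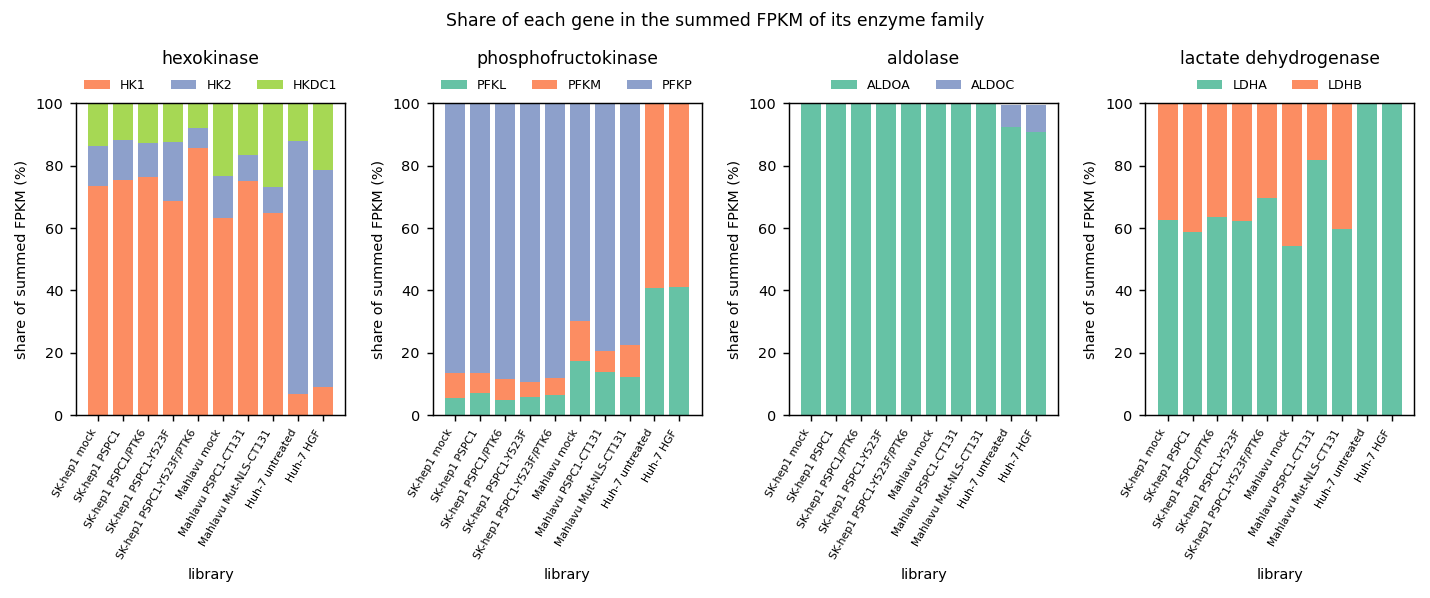
Share (%) of each gene in the summed deposited FPKM of its enzyme family, with 1 bar for each library; genes that stay below 0.5% in every library are left out. HK1 and PFKP hold most of their families in SK-hep1 and Mahlavu, HK2 and PFKM with PFKL hold most in Huh-7, and LDHA holds 54.3% in Mahlavu mock and 81.9% with PSPC1-CT131.

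Of the HIF subunits, both alpha subunits covered a wide range of levels and ARNT a narrow one. HIF1A (14:61695513-61748259) had 27.5 FPKM in SK-hep1 mock, 31.2 and 61.6 with PSPC1 without and with PTK6, and 18.6 and 31.2 with the mutant without and with PTK6. In Mahlavu it had 187 FPKM in mock, 99.6 with PSPC1-CT131 and 320 with Mut-NLS-CT131, and in Huh-7 95.2 and 90.9. EPAS1, which encodes HIF-2 alpha (2:46293667-46386703), had 35.9, 121, 116, 70.2 and 123 FPKM in SK-hep1, 421, 330 and 281 in Mahlavu, and 161 and 154 in Huh-7. ARNT, the shared partner, stayed between 24.1 and 36.2 FPKM in all 10 libraries. EPAS1 exceeded HIF1A in 9 of the 10 libraries, with 46.8% of their summed FPKM in Mut-NLS-CT131 and 56.6% to 79.7% in the others. Both alpha subunits were thus at their highest in Mahlavu. How many of all genes were highest in that line was not counted.

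Fold changes below are differences of log2(quantile-normalized FPKM + 1) between 2 libraries, for genes whose mean over both reached 1 FPKM, and a gene is called higher or lower from a 2-fold change on. Ratios, where given, are of the deposited FPKM with a 95% Clopper-Pearson interval that covers counting error only. The 4 comparisons in SK-hep1 share the same mock library and are given in 1 order throughout, PSPC1 first, then PSPC1/PTK6, the mutant PSPC1-Y523F and last the mutant with PTK6, and CA9, CA12, EGLN3 and ALDOC did not pass the minimum in any of them.

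With PSPC1 in SK-hep1, EPAS1, SLC2A1, SLC2A3 and ENO2 rose and ANGPTL4 fell among the 35 members kept (4 higher and 1 lower), while 3.38% of all genes were higher and 2.19% lower by 2-fold or more. ENO2, the enolase of neurons that many tumour lines also express, had 8.99 FPKM in mock and 32.3, 23.5, 18.2 and 18.2 FPKM in the 4 others. All 4 values lay above mock, and the ratio with PSPC1 was 3.59 (3.10 to 4.18). EPAS1 changed by 1.68 on the log2 scale, a ratio of 3.37 (3.14 to 3.61), and SLC2A1 (glucose transporter GLUT1) went from 115 FPKM in mock to 257, 205, 242 and 226 FPKM in the same order. SLC2A3 (GLUT3) had 29.8 FPKM in mock, 66.5 and 86.3 with PSPC1 and PSPC1/PTK6, and 28.2 and 22.4 in both PSPC1-Y523F libraries. Its high values were thus those of the libraries with unmutated PSPC1.

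ANGPTL4, a secreted inhibitor of lipoprotein lipase, went the other way. It had 194 FPKM in mock and 42.6, 49.2, 148 and 51.8 in the 4 others, and its log2 fold changes were -2.03, -1.94, -0.37 and -1.73. The PSPC1-Y523F library was the 1 that stayed close to mock. The lactate genes did not reach 2-fold, with LDHA at 1786, 1026, 1380, 1084 and 1274 FPKM and SLC16A3 at 1121, 701, 820, 920 and 819 FPKM, and mock held the highest value of both.

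With PSPC1/PTK6, 5 members were higher (EPAS1, SLC2A3, ADM, ENO2 and HIF1A) and 2 lower (ANGPTL4 and ANKRD37), against 5.09% of all genes higher and 3.32% lower. With TMM scaling the split was 3 higher and 3 lower, since HIF1A (0.96) and ADM (0.96) no longer reached 2-fold and GAPDH (-1.16) did. ADM, which encodes the vasodilator peptide adrenomedullin, had 91.6, 119, 202, 74.4 and 71.0 FPKM in the 5 SK-hep1 libraries, highest with PSPC1/PTK6. ANKRD37, a small ankyrin repeat protein whose gene overlaps UFSP2 on the other strand, had 5.12, 3.30, 1.95, 3.23 and 11.6 FPKM, which rest on 93, 56, 39, 57 and 236 reads. HIF1A changed by 1.03 on the log2 scale, a ratio of 2.24 (2.09 to 2.39).

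With PSPC1-Y523F, 1 member was higher (SLC2A1, 1.01) and 1 lower (NDRG1, -1.0), against 2.83% of all genes higher and 2.46% lower. NDRG1, a stress-responsive gene often used as a hypoxia marker, had 59.2, 51.7, 94.4, 27.3 and 109 FPKM in the 5 libraries. Both libraries with PTK6, which also had the most PSPC1, held the highest values. With PSPC1-Y523F/PTK6, EPAS1 (1.69), ANKRD37 (1.11) and ENO2 (1.00) were higher and ANGPTL4 lower, against 3.44% of all genes higher and 1.59% lower. ENO2 in this library and NDRG1 in the former stood at the edge of the threshold.

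The libraries with PTK6 were also set against those with the same form of PSPC1 alone. Within these pairs the PSPC1 level differed too, from 7.01 to 26.4 FPKM and, for the mutant, from 2.28 to 70.9 FPKM. A part of PTK6 and a part of the PSPC1 level cannot be told apart here. Between PSPC1/PTK6 and PSPC1 no member reached 2-fold either way, against 3.09% of all genes higher and 1.87% lower, and the largest differences were -0.90 for ANKRD37 and 0.84 for HIF1A. Between PSPC1-Y523F/PTK6 and PSPC1-Y523F, against 3.78% of all genes higher and 2.2% lower, NDRG1 was higher by 1.87 (ratio 3.98, 3.68 to 4.32), ANKRD37 was higher by 1.52 (3.6, 2.68 to 4.89) and ANGPTL4 changed by -1.36. Whether these differ between the wild-type and mutant backgrounds was not tested.

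In Mahlavu cells the library labelled PSPC1-CT131 held the broadest rise. Of 38 members kept, 13 were at least 2-fold higher than in mock and 0 were lower, against 3.17% of all genes higher and 3.16% lower. The 13 came from every list but the subunits, with 5 of 15 HIF targets outside glycolysis (CA9, CA12, ANGPTL4, EGLN3 and P4HA2), 3 of 3 transporters (SLC2A1, SLC2A3 and SLC16A3) and 5 of 17 glycolytic enzymes (ENO2, PFKFB4, PGK1, PFKP and TPI1). The values below are in the order mock, PSPC1-CT131 and Mut-NLS-CT131.

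CA9 had 2.54, 26.3 and 13.7 FPKM, a ratio of 10.3 (7.86 to 13.8) for PSPC1-CT131 against mock. ARHGEF39, which overlaps CA9 on the other strand of a library kit that does not mark strand, had 199, 201 and 136 reads and so did not rise with it. CA12 (15:63321378-63382161) had 6.91, 23.3 and 54.1 FPKM and ran highest in Mut-NLS-CT131. ANGPTL4 had 0.843, 4.19 and 0.620 FPKM on 21, 91 and 13 reads, which gave a ratio of 4.96 with a wide interval (3.06 to 8.40). EGLN3 had 15.8, 33.5 and 15.3 FPKM, so mock and Mut-NLS-CT131 lay together and PSPC1-CT131 above them. P4HA2, a collagen prolyl hydroxylase, had 50.7, 107 and 110 FPKM, higher in both transfected libraries to a like degree.

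The transporters and enzymes showed both patterns. SLC2A1 (1:42925375-42959173) had 165, 479 and 182 FPKM and SLC16A3 225, 587 and 286 FPKM, with the high value in PSPC1-CT131 alone. SLC2A3 had 12.3, 28.0 and 49.4 FPKM, highest in Mut-NLS-CT131. PFKFB4, which makes the activator of phosphofructokinase, had 9.80, 28.1 and 11.8 FPKM, a ratio of 2.86 (2.48 to 3.31). ENO2 (12:6913745-6923698) had 41.9, 152 and 121 FPKM, so both transfected libraries exceeded mock, by 2.01 and 1.67 on the log2 scale. PGK1, the first step of glycolysis to yield ATP (X:78065188-78129296), had 745, 1590 and 986 FPKM, PFKP 708, 1462 and 1072 FPKM, and TPI1 437, 924 and 525 FPKM. For all 3 enzymes PSPC1-CT131 was highest, and Mut-NLS-CT131 lay between it and mock. Genes on the other strand that overlap higher members had fewer reads or about equal reads, with 3349, 2729 and 2492 for CSNK1D at SLC16A3, 761, 824 and 530 for SPSB2 at TPI1, and at most 7 for PDLIM4 at P4HA2 and RAB11B-AS1 at ANGPTL4.

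Of the remaining members with a fold change above 0 in PSPC1-CT131, LDHA came nearest to 2-fold (795, 1467 and 790 FPKM, 0.98 on the log2 scale), then PDK1, a kinase that inhibits pyruvate dehydrogenase (0.92), and BNIP3 (0.89). All 15 HIF targets outside glycolysis and 16 of 17 glycolytic enzymes had a fold change above 0, and the exception was PFKM at -0.04. The median of all genes in this comparison was 0.01. On FPKM as deposited, BNIP3L (-0.13), EGLN1 (-0.04), KDM3A (-0.27), HK2 (-0.18) and PFKM (-0.06) lay below 0, where the median of all genes was -0.24. The alpha subunits were not among the higher members, with HIF1A at -0.98 and EPAS1 at -0.46 in the same comparison. LDHA made up 54.3% of LDHA plus LDHB in mock, 81.9% in PSPC1-CT131 and 59.7% in Mut-NLS-CT131. LDHB itself had 670 FPKM in mock and 323 FPKM in PSPC1-CT131. Together the 18 glycolytic enzymes took 1.75%, 2.89% and 1.79% of all FPKM.

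Fold changes in the PSPC1-CT131 library rose with the GC content of transcripts across all genes (Spearman's rho 0.57 over 12402 genes, which are not independent replicates). The 13 higher members had a median GC content of 55.0% (43.3% to 63.3%), the other members 52.1% and all genes 48.6%. With GC content and length taken out of the fold changes, the median of the 13, which were picked by these same fold changes, went from 1.5 to 1.43. The median of the other members went from 0.41 to 0.30. That of the 17 glycolytic enzymes went from 0.55 to 0.41 and that of the 15 HIF targets outside glycolysis from 0.70 to 0.78. The count of members stayed at 13 higher and 0 lower, although PFKP (0.95) and TPI1 (0.82) left and PDK1 (1.25) and LDHA (1.18) entered. In the same setting HIF1A, whose transcript has a GC content of 36.4%, went from -0.98 to -0.46, and HK2, PFKL, PFKM, PFKFB3 and PGAM1 stood between -0.17 and -0.02. Mitochondrial genes took 0.820% of reads in the PSPC1-CT131 library, 1.54% in mock and 1.51% in Mut-NLS-CT131, and PTK6 had 17.2, 8.95 and 17.3 FPKM in that order. Of the 9 fibroblast markers 5 were kept in each comparison with mock. In each 2 were lower, beside 3.16% of all genes with PSPC1-CT131 and 3.26% with Mut-NLS-CT131. Of the 5 kept, 1 had a fold change above 0 with PSPC1-CT131 and 2 with Mut-NLS-CT131. The summed FPKM of the 9 was 55.4, 41.0 and 60.7 in mock, PSPC1-CT131 and Mut-NLS-CT131. COL1A2, the marker with the most FPKM in all 3, had 26.7, 26.8 and 44.5 in the same order. Of the markers called lower, THY1 had 4.73, 0.283 and 0.168 FPKM, FAP 4.44, 1.01 and 5.04, and PDGFRB 7.71, 4.87 and 2.55. DCN was at or near 0 in all 3. The mock library also stood apart from both others, with reads on 24052 genes at a median of 1.91 FPKM and a TMM factor of 1.26, against 20999 genes, 2.74 FPKM and 1.03 in PSPC1-CT131 and 21628 genes, 2.80 FPKM and 1.13 in Mut-NLS-CT131. The part of these values in the comparisons with mock was not tested.

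In the library labelled Mut-NLS-CT131, 5 of 37 members were higher than in mock (CA12, CA9, SLC2A3, ENO2 and P4HA2) and ADM was lower, against 3.16% of all genes higher and 3.26% lower. On FPKM as deposited a second member, ANKRD37 (-1.08), was lower too. CA12 had the largest ratio, 7.83 (7.0 to 8.79), and CA9 had 5.37 (4.03 to 7.27). ADM had 32.6 FPKM in mock, 37.4 in PSPC1-CT131 and 8.53 in Mut-NLS-CT131, so it was low in Mut-NLS-CT131 alone. Of the glycolytic enzymes ENO2 was the 1 past 2-fold, and the median of the 17 was 0.08.

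Set directly against Mut-NLS-CT131, PSPC1-CT131 had 9 members higher and 2 lower of 38, against 4.23% of all genes higher and 4.59% lower. The higher members were ADM (2.27), ANGPTL4 (1.76), PFKFB4 (1.44), SLC2A1 (1.42), ANKRD37 (1.38), EGLN3 (1.30), CA9 (1.14), SLC16A3 (1.06) and LDHA (1.00). HIF1A (-1.77) and CA12 (-1.10) were lower, and the ratio for HIF1A was 0.312 (0.300 to 0.323). With GC content and length taken out, CA9 (0.82) and SLC16A3 (0.66) no longer reached 2-fold and HIF1A still did, at -1.15.

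With HGF in Huh-7, 0 of 36 members changed by 2-fold, against 0.428% of all genes higher and 0.393% lower, and most glycolytic enzymes had fold changes below 0. PFKFB3, the other enzyme that makes the activator of phosphofructokinase, had 38.1 FPKM in control and 23.1 with HGF, a ratio of 0.605 (0.546 to 0.671). SLC2A1 had 47.9 and 30.4 FPKM, a ratio of 0.634 (0.566 to 0.709), and PFKFB4 had 42.5 and 29.9 FPKM. Of the 17 glycolytic enzymes kept, 15 had a fold change below 0, with a median of -0.22, where 49.4% of all genes lay above 0, and ENO1 (-0.44) and LDHA (-0.39) were among the lowest. HIF1A (-0.03), EPAS1 (-0.02) and VEGFA (0.00) had nearly equal values in both libraries. SLC2A3 had the largest positive value, 0.73, on 14 and 37 reads.

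Set side by side, the HIF targets outside glycolysis and the glycolytic enzymes had medians within 0.3 of each other on the log2 scale in the setting used here, except in Mut-NLS-CT131. On FPKM as deposited and with TMM the medians lay further apart in PSPC1/PTK6 too, by 0.46 and 0.47. They did so in the mutant with PTK6, by -0.32 in both, and for PSPC1-CT131 set against Mut-NLS-CT131, by -0.45 in both. Each value is that of the HIF targets minus that of the enzymes. For PSPC1-CT131 set against Mut-NLS-CT131 the value turned to 0.19 with GC content and length taken out, so no order is given there. Spearman's rho of fold change with GC content was 0.57 in that comparison. In Mut-NLS-CT131 the medians against mock were 0.59 for 14 HIF targets and 0.08 for 17 enzymes, a difference of 0.51 that became 0.42 on FPKM as deposited and 0.41 with TMM. In PSPC1-CT131 the medians were 0.70 and 0.55, and their order turned with the scaling, to 0.55 and 0.71 on FPKM as deposited and 0.82 and 1.00 with TMM, so both lists lay well above the median of all genes and no order between them is given. In the 4 SK-hep1 comparisons the medians were 0.14 and -0.12 for PSPC1 alone, 0.12 and -0.16 where PTK6 was added, -0.26 and -0.01 for the mutant, and -0.04 and 0.12 for the mutant plus PTK6. Spearman's rho of fold change with GC content was 0.18, -0.09, 0.25 and 0.25 in these 4 comparisons, in the same order. In PSPC1-Y523F, 10 of 12 HIF targets lay below 0, where 49.2% of all genes lay above 0, and their median became -0.19 with GC content and length taken out. VEGFA (0.96), the angiogenic growth factor, was 1 of the 2 HIF targets above 0. With HGF the medians were -0.10 and -0.22. The medians of all genes kept lay between -0.04 and 0.01 in every comparison. On FPKM as deposited they were shifted by 0.15 with PSPC1/PTK6, 0.20 when this library was set against PSPC1, -0.13 with PSPC1-Y523F/PTK6, -0.24 with PSPC1-CT131 and -0.13 when that library was set against Mut-NLS-CT131.

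**Figure D3:**
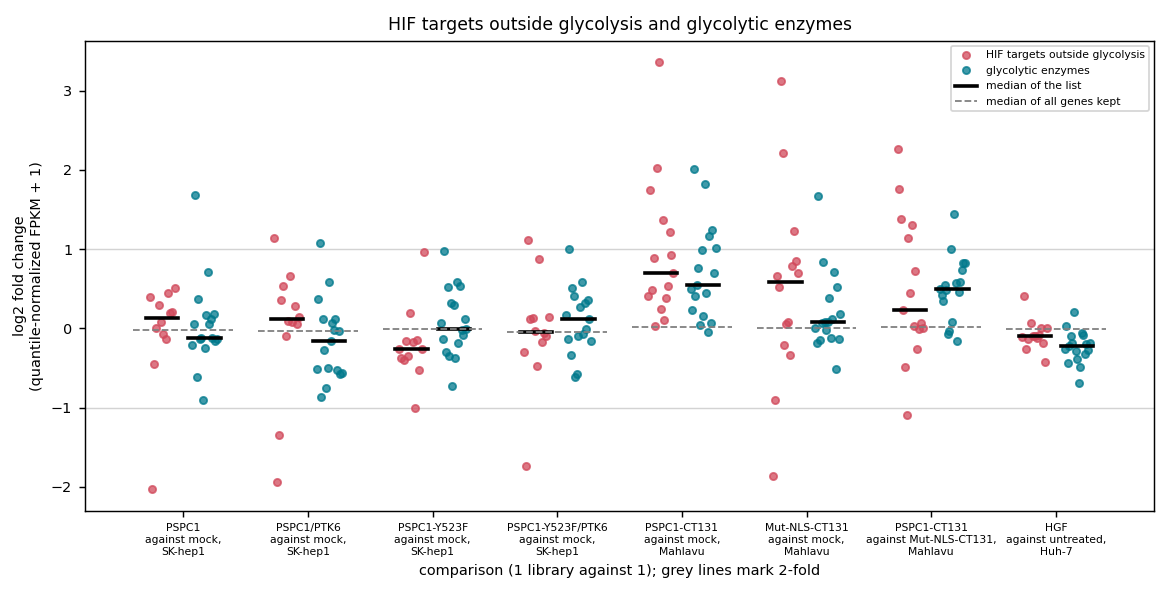
Log2 fold change of each HIF target outside glycolysis (red) and each glycolytic enzyme (teal) kept in 8 comparisons of 1 library with 1; black bars are list medians, dashed lines are medians of all genes kept and grey lines mark 2-fold. Both lists lie above 0 in PSPC1-CT131 (medians 0.70 and 0.55, whose order turns on FPKM as deposited and with TMM), and the medians in Mut-NLS-CT131 are 0.59 and 0.08.

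Wider lists of the same pathways were counted in the same way. Of 30 further HIF targets, 27 were kept in PSPC1-CT131 against mock, with 6 higher and 0 lower and a median of 0.30, beside 3.17% higher and 3.16% lower of all genes. The largest were AK4 (2.0), STC1 (1.70) and BHLHE40 (1.29). In Mut-NLS-CT131, 2 of 27 were higher (BHLHE40, 1.64, and AK4, 1.51) and the median was 0.41, beside 3.16% higher and 3.26% lower of all genes. Of 16 further glycolytic genes 9 were kept in both, with LDHB lower in PSPC1-CT131 (-1.18) and HKDC1, a hexokinase, higher in Mut-NLS-CT131 (1.05). Of 10 other genes of oxygen sensing 9 were kept, with 0 changed in PSPC1-CT131 and ARNT2 (-1.24) and CITED2 (-1.06) lower in Mut-NLS-CT131. Of 15 genes of gluconeogenesis and pyruvate use, 10 were kept and 0 changed in either. In SK-hep1, HMOX1, the haem oxygenase, was lower with PSPC1 (-1.10), the mutant (-1.94) and the mutant with PTK6 (-1.37), and LOX, a collagen cross-linking oxidase, had 4.67, 10.1, 17.3, 3.79 and 25.9 FPKM in the 5 libraries and was past 2-fold in PSPC1/PTK6 (1.39) and in the mutant with PTK6 (2.24). Of 24 further HIF targets kept there, 1, 4, 1 and 2 were higher and 1 was lower in each, in the order above. Beside them stood 3.38%, 5.09%, 2.83% and 3.44% higher and 2.19%, 3.32%, 2.46% and 1.59% lower of all genes. Of the 10 other genes of oxygen sensing, 9, 8, 9 and 9 were kept there in the same order, and 0, 0, 1 and 1 were higher and 0 lower. EGLN2 was higher with the mutant (1.31, from 2.95 FPKM in mock to 8.53) and ARNT2 with the mutant plus PTK6 (1.47). With HGF, 0 of the 26 further HIF targets and 0 of the 11 further glycolytic genes changed by 2-fold, beside 0.428% higher and 0.393% lower of all genes.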

How the data were processed

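The authors deposited counts and FPKM side by side for 8 libraries (SK-hep1 and Mahlavu), and FPKM alone for Huh-7. The submitters' processing notes name TopHat2 2.0, HTSeq 0.6.1, edgeR and GRCh38.p12, while the study's methods name hg18. The labels describe poly-A selection with a kit that does not mark strand, and the study's methods name rRNA depletion. The deposited FPKM were not quantile normalized, so this step, which the study states, was done here, once over those 8 libraries and once over the Huh-7 pair. The FPKM of the 8 libraries gave back the deposited counts for 100% of values within 0.01 read, and the recovered gene lengths gave the Huh-7 reads.

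Each table listed 58302 genes after 8 lines without a value were left out. Fold changes are differences of log2(FPKM + 1), for genes whose mean in the libraries compared reached 1 FPKM, called at 2-fold. With 1 library per condition no test was run. Intervals at 95% cover counting error only, and PCR duplicates were not marked; a gene with 100 reads has an interval of about 20.2% each way. Alternatives were pseudocounts of 0.1 and 5, no filter, FPKM as deposited, TMM (edgeR 4.0.16, R 4.3.3) and fold changes with GC content and length taken out. Other steps used Python 3.11.15, and the code was tested on simulated data. The members and lists were chosen with earlier results of these data known. Values of every library of a line were given for members changed by 2-fold against the control of that line and for HIF subunits. They were also given for the 3 highest and 3 lowest members by median, with ranges alone for PKM, GAPDH and, in SK-hep1 and Mahlavu, ALDOC. Of other lists at most 3 changed genes a list and comparison were named. Positions are those of the tables.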

Additional observations from a re-analysis of the deposited data

Results flagged for a closer look

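ANKRD37 and HIF1A went in opposite directions, by at least 1.5-fold each way, in contrasts of the same kind, and this size was chosen after the values were seen. ANKRD37 had a log2 difference of -0.90 between PSPC1/PTK6 and PSPC1 and of 1.52 between PSPC1-Y523F/PTK6 and PSPC1-Y523F in SK-hep1. The PSPC1 level differed within both pairs too. ANKRD37 overlaps UFSP2, which had 119 to 184 reads in these libraries, on the other strand. HIF1A had -0.98 in PSPC1-CT131 and 0.79 in Mut-NLS-CT131 against the shared Mahlavu mock. With GC content and length taken out the values for HIF1A were -0.46 and 0.69. With 1 library per condition neither difference was tested.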

How the results depend on the processing

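No paired analysis was possible because each condition has 1 library. Of 51 changes of named members past 2-fold, 0 reversed under any of the 6 alternatives, and 13 fell below 2-fold with a pseudocount of 5, 7 with GC content and length taken out, 3 on FPKM as deposited and 2 with TMM. With a pseudocount of 5 the count of changed members was 4 with PSPC1/PTK6 (7 in the reported setting), 0 with the mutant (2), 2 with the mutant plus PTK6 (4) and 6 for PSPC1-CT131 set against Mut-NLS-CT131 (11). With GC content and length taken out it was 1 with PSPC1-Y523F, and with a pseudocount of 0.1 it was 1 with HGF (0 as reported). For PSPC1/PTK6 set against PSPC1, whose alternatives were chosen after seeing the data as were those for added PTK6 on the mutant, it was 1 with a pseudocount of 0.1 and 1 with GC content and length taken out (0 as reported). The median of HIF targets minus that of enzymes was 0.15 in PSPC1-CT131 against mock and became -0.16 on FPKM as deposited, -0.18 with TMM and 0.37 with GC content and length taken out. For PSPC1-CT131 set against Mut-NLS-CT131 it was -0.28 and became -0.45 on FPKM as deposited, -0.45 with TMM and 0.19 with GC content and length taken out. In PSPC1-Y523F/PTK6 it was -0.16 and became -0.32 on FPKM as deposited, -0.32 with TMM, -0.09 with no filter and -0.07 with GC content and length taken out. In PSPC1/PTK6 it was 0.27 and became 0.46 on FPKM as deposited and 0.47 with TMM. The cause was not tested. Depth limits CA9, EGLN3 and CA12 in SK-hep1, PFKP in Huh-7 and ANGPTL4 in Mahlavu, which rest on few reads.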
